A study of Mus musculus with 6 samples.

Results

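The cytosolic ribosomal protein genes were examined in RNA from LSK cells of mouse bone marrow. Members were the protein-coding genes whose symbol begins with Rpl, Rps, Rplp or Rpsa and that encode a protein of the cytosolic ribosome. This gave 85 of the 54532 genes in the deposited tables, 52 of the large and 33 of the small subunit. Kinases of the Rps6k family and Rps19bp1 (11 genes), protein-coding genes with a -ps name (6 genes) and 307 pseudogenes with Rpl or Rps names were left out. All 6 libraries carried Phf6fl-R274X/Y, a conditional allele of Phf6, which lies on the X chromosome, in male mice. Phf6 encodes a PHD finger protein found in nucleoplasm and nucleolus, and R274X names a premature stop codon in it. In 3 libraries (floxed) it was present without Cre, and in 3 (Vav1-Cre) it was combined with Vav1-Cre, a recombinase transgene driven by a promoter active across blood cells. LSK cells lack lineage markers and carry Sca-1 and c-Kit, a gate that holds stem cells and multipotent progenitors. The labels give no age of the mice. Since Cre was present in 1 group only, an effect of Cre itself cannot be told apart from an effect of the recombined allele.

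The ribosome consists of a large and a small subunit, each made of ribosomal RNA and a fixed set of proteins that are needed in about equal numbers. The mRNAs of these proteins belong to the most abundant in growing cells and mostly start with a 5′ terminal oligopyrimidine (TOP) tract, through which the kinase mTOR and the protein LARP1 control their translation together. Blood formation is known to be sensitive to the dose of ribosomal proteins, as loss of a single copy of several of them causes Diamond-Blackfan anaemia in humans.

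Total counts were 15406314 to 18106065 per library. Phf6 itself was lower in all Vav1-Cre libraries, at 31.8, 29.6 and 33.5 CPM (counts scaled to the library size) in the floxed and 8.47, 10.2 and 8.29 CPM in the Vav1-Cre libraries (log2 fold change -1.81, edgeR adjusted p = 6.67e-06). Both gate markers were detected in every library, with Kit, the gene of c-Kit, at 84.5 to 173 CPM and Ly6a, the gene of Sca-1, at 136 to 256 CPM. Kit was lower and Ly6a higher in the Vav1-Cre libraries, and 8 of 10 stem cell and gate markers fell. As background to the marker counts here, 10.1% of all tested genes rose and 7.89% fell. Immunoglobulin genes took 0.293% to 1.18% of the counts in the floxed and 4.45% to 7.95% in the Vav1-Cre libraries. Of 10 B cell markers 6 rose, with a summed level, as CPM of the library total, of 351 to 806 against 1385 to 2672. Of 7 macrophage and monocyte markers 4 rose, from 194 to 384 against 744 to 1473, and no marker of the 2 lists was at 0 in all libraries. Of 8 T and NK cell markers 5 rose and 1 fell, while their summed level was 176 to 202 against 114 to 147. Of 7 erythroid markers 2 rose (825 to 1157 against 1582 to 2597), and none of 8 neutrophil markers passed the test. These differences accompany every result below, and their part in them was not tested. In bulk RNA, fewer cells of a type and less RNA per cell cannot be told apart.

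The mRNAs of ribosomal proteins were abundant in every library and differed little between the groups. They held 15.8%, 14.8% and 15.6% of all counts in the floxed and 15.3%, 14.1% and 14.1% in the Vav1-Cre libraries, and the groups overlapped. The means were 15.4 ± 0.547% and 14.5 ± 0.684% (SD, n = 3 each), a difference of -0.91 percentage points. With immunoglobulin genes taken out of the total, the shares were 15.9%, 14.8% and 15.8% against 16.4%, 15.3% and 14.8%, and the difference was -0.0211 points. As a share of summed FPKM, the deposited value per exon length of a gene, the groups did not overlap, at 21.2%, 20.7% and 20.9% against 17.6%, 16.4% and 17.0%. Without immunoglobulin genes that share overlapped as well, at 21.7%, 20.9% and 21.8% against 22.2%, 21.7% and 19.8%.

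Per length, levels of single members spanned a wide range, although the ribosome contains most of their proteins in equal numbers. For most genes that length was of all annotated exons merged, and the order by FPKM depends on it. Rps24, with 6256 bases, had a mean of 3027 CPM in the floxed libraries and of 502 FPKM over all libraries. Rps15, with 630 bases, had 2113 CPM and 3535 FPKM. The median over the 83 tested members was 838 FPKM against 4.83 FPKM over all tested genes, and 77 of the 85 members were above 100 FPKM. The highest mean belonged to Rplp1, an acidic protein of the stalk that recruits elongation factors, with 7212 FPKM. It was followed by Rps15, of the head of the small subunit, with 3535 FPKM and Rps3a1, a small subunit protein, with 3525 FPKM. At the other end stood genes with a more abundant relative. Rpl3l, the striated muscle paralog of Rpl3, had a mean of 1.60 FPKM, from 25 to 60 counts per library. Rpl39l, a paralog of Rpl39 best known from testis, had 1 to 8 counts per library and was not tested. Rpl10l, the testis retrogene of Rpl10, had 0 counts in every library. A count of 0 allows up to 3 counts per library, and this limit covers counting error only.

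Low values of Rpl24 (3.40 FPKM), Rps10 (4.46 FPKM) and Rpl36al (4.96 FPKM) have to be read with their pseudogenes. A search of the annotated transcripts found 549 copies with at least 95% identity over at least 70% of a member's coding sequence, belonging to 78 members. Of these, 545 are pseudogenes by annotation and 202 held over 100 counts in the 6 libraries. The median member had 2.64% of its family's counts in such copies, 27 members had under 1%, and 21 had over 10%. The share passed 50% in 4 genes, Rps10 (98.5%), Rpl24 (83.4%), Rpl21 (58.5%) and Rpl17 (52.7%). Over all 6 libraries Rpl24 had 361 counts and its copies 1817, and Rpl36al had 680 and its copies 352. Both stayed low with their copies added, whereas Rps10 had 1054 counts and its copies 70807. Rps10, a protein of the small subunit's beak, had 184, 206 and 191 counts in the floxed and 149, 167 and 157 in the Vav1-Cre libraries. Its processed pseudogene Rps10-ps2, 99.0% identical over the aligned part of the coding sequence, had 12352, 10934, 12496, 12096, 10110 and 9988 counts in the same order. Reads from stretches that such a gene shares with its copies cannot be told apart in these tables, so the levels of these members are uncertain. The annotation also lists overlapping transcripts on the same strand for these 3 genes, all with 0 counts. They are RPS10-NUDT3 over 20.6% of the exon bases of Rps10, Gm28037 over 47.0% of those of Rpl24 and Gm49383 over 24.5% of those of Rpl36al.

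**Figure D1:**
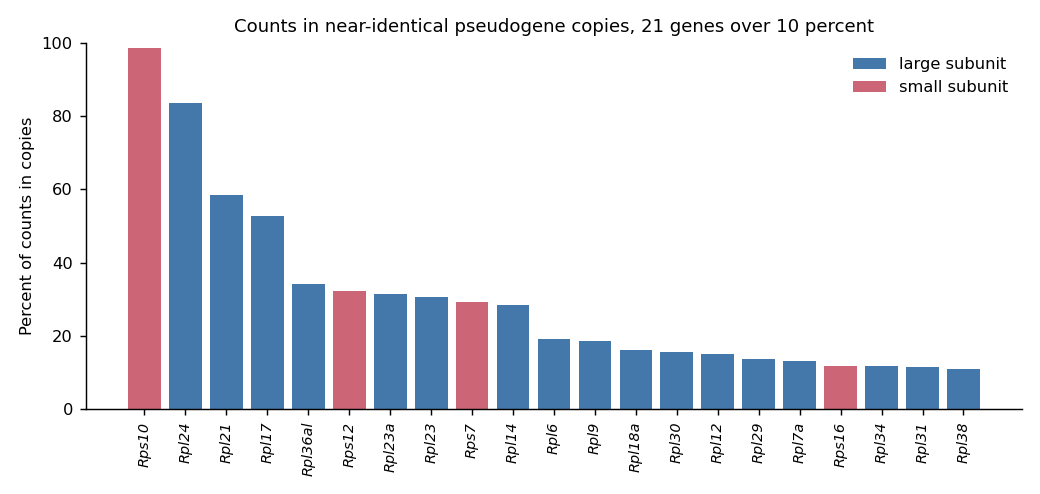
Percent of the summed counts of a gene and its near-identical pseudogene copies that lay in the copies (y axis), over all 6 libraries, for the 21 ribosomal protein genes above 10%. Bars are coloured by subunit. Rps10, Rpl24, Rpl21 and Rpl17 exceed 50%.

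Of 83 tested members 5 were higher in the Vav1-Cre libraries at an edgeR adjusted p under 0.05, 0 were lower and 78 did not pass. Over all 14608 tested genes 17.9% passed, 10.1% higher and 7.89% lower, beside 6.02% of members. At an unadjusted p under 0.05 the number of members was 14, against 32.1% of all genes. The fitted log2 fold changes of members ran from -0.81 to 0.85 with a median of 0.10, and 60 of 83 lay within 0.2 of 0. The median of all genes was -0.02. The median was 0.12 for the 50 tested genes of the large subunit and 0.08 for the 33 of the small subunit. The sign of this median depended on scaling, as it was -0.25 with quantile normalization of the deposited FPKM (-0.07 over all genes) and -0.03 when immunoglobulin genes were removed before that normalization. Under quantile normalization limma called 0 members higher and 41 lower (4.81% and 8.3% of all genes), and without immunoglobulin genes 1 and 2 (4.73% and 4.9%). DESeq2 called 12 members higher and 0 lower (10.3% and 6.05% of all genes), and edgeR without the count filter 14 and 0 (6.81% and 6.11%). The median standard error of a member was 0.0884 on the log2 scale, against 0.132 for all genes. Nothing in the labels ties each library to its own animal, so the p-values measure the spread between libraries, which may be technical.

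In 12 members all Vav1-Cre values lay above all floxed values, and in 0 members all lay below. Among all tested genes 37.2% were separated, 18.9% upward and 18.3% downward. The 12 were Rpl10, Rpl23a, Rpl27a, Rpl29, Rpl35a, Rpl36, Rpl36a, Rpl38, Rpl41, Rps15, Rps27l and Rps27rt, 9 of them from the large subunit.

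**Figure D2:**
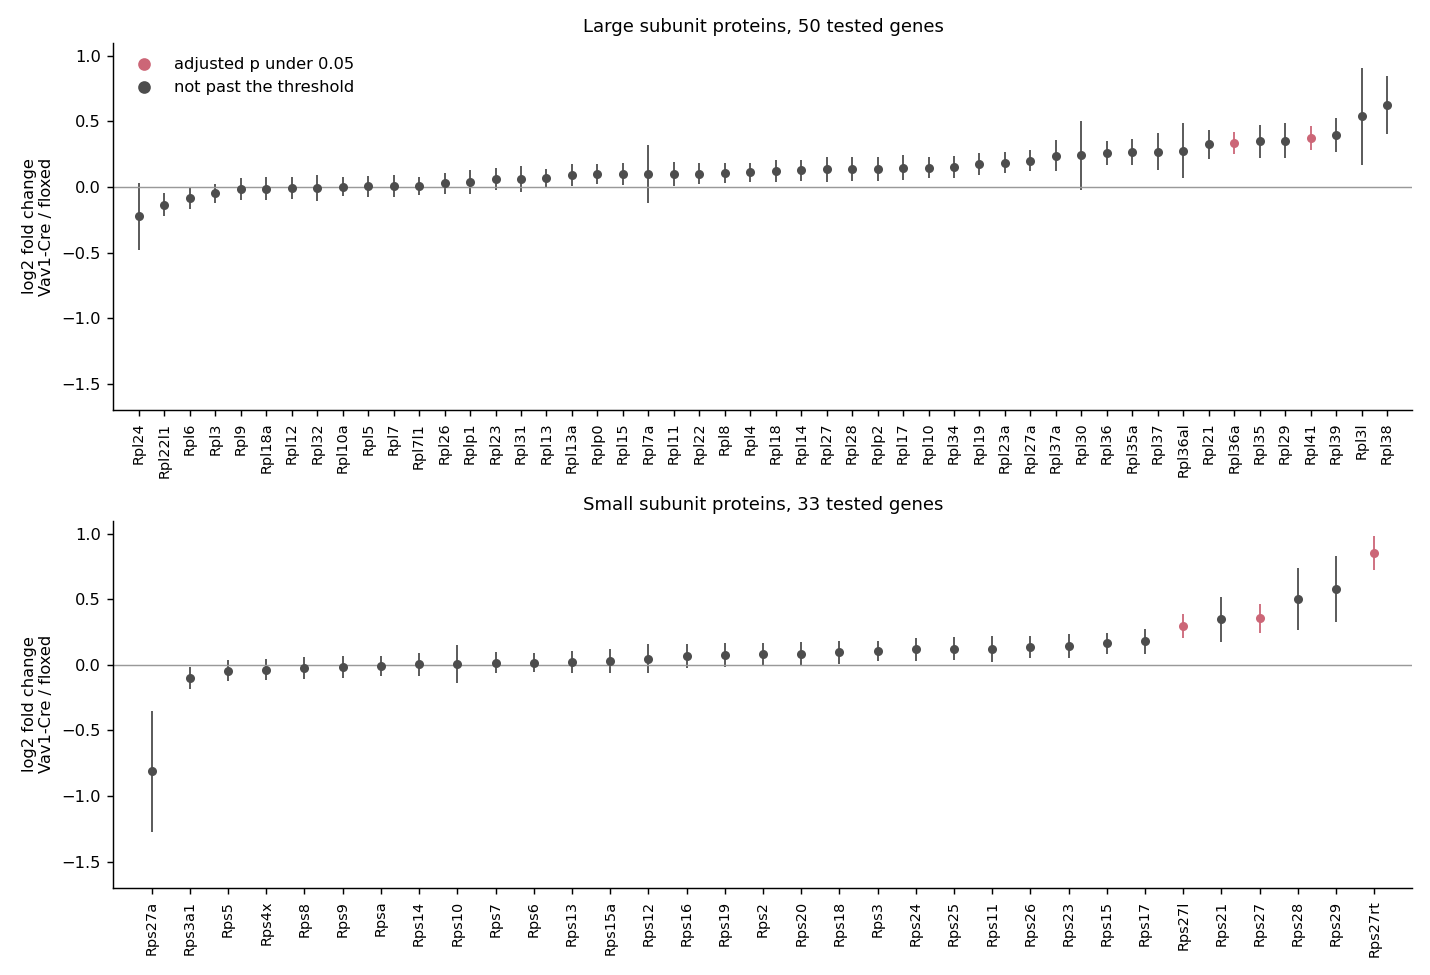
Log2 fold change of Vav1-Cre over floxed (y axis) for the 83 tested ribosomal protein genes, in rising order within the large (top) and small (bottom) subunit. Points are edgeR estimates and bars their standard error. The 5 genes past the threshold, Rpl36a, Rpl41, Rps27l, Rps27 and Rps27rt, are in red.

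The Rps27 family held 3 of the 5 genes that rose. Rps27 encodes a zinc finger protein of the small subunit, and Rps27l is a vertebrate paralog known as a target of p53. Rps27rt is annotated as a retrogene of Rps27, a copy made by reverse transcription of an mRNA. Rps27rt lies on chromosome 9 (chr9:114982366-114982739, minus strand, GRCm38) in a single exon, whereas Rps27 lies on chromosome 3 (chr3:90212522-90213651, minus strand) and Rps27l also on chromosome 9 (chr9:66946086-66949516, plus strand). The coding sequences of Rps27 and Rps27rt, 255 bases each, had 0 mismatches, so coding reads of the pair cannot be told apart and their division rests on the UTRs and on the authors' counting. Rps27l differed from both at 61 of 255 positions (76.1% identity).

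Sequences around the RefSeq start sites (GRCm38.p6) are shown to compare the retrogene with its source. The first pair gives 6 bases before and 24 bases after the start (Rps27 chr3:90213625-90213654, Rps27rt chr9:114982716-114982745, both minus strand), with the longest unbroken run of C and T in the first 20 bases in capitals.
Rps27: ttcgCTCCTTTCCggcggtgacgacctccc
Rps27rt: cccttgCTTTCCggcggtgacgacctccct
From the start of Rps27rt on, the pair shared 38 bases in a row, with Rps27 shifted by 1 base, and both begin with a pyrimidine tract. The 60 bases before the start (Rps27 chr3:90213649-90213708, Rps27rt chr9:114982740-114982799, both minus strand) showed no such likeness.
Rps27 upstream: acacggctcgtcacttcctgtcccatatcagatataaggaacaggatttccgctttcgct
Rps27rt upstream: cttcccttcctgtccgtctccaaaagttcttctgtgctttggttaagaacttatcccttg
At the same shift, 8 of the 50 bases before the start matched. The annotated 5′ ends of the mRNAs matched, and the sequence before them did not.

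Rps27rt had 124, 120 and 89.4 CPM in the floxed and 219, 203 and 181 CPM in the Vav1-Cre libraries. Every Vav1-Cre library was above every floxed one, and floxed library 3 was the lowest. The level was 1.80-fold higher (log2 fold change 0.85, 95% interval 0.55 to 1.15, edgeR adjusted p = 0.00377), and the call held in all 6 fits that left out a library (0.70 to 0.93). It did not hold under every setting. The sign turned with the length offset (-1.12, adjusted p = 0.151) and the length and GC offset (-1.19, adjusted p = 0.141), both fitted in edgeR with immunoglobulin genes included, and the call was lost with limma on quantile normalized FPKM (0.48, adjusted p = 0.0925). Rps27 had 860, 709 and 651 CPM against 1030, 969 and 841 CPM. Here the groups overlapped, since floxed library 1 exceeded Vav1-Cre library 3. The change was 0.36 on the log2 scale (SE 0.111, edgeR adjusted p = 0.0466), and it lost the threshold without floxed library 2 or 3 or Vav1-Cre library 1 or 2 (adjusted p up to 0.178). Rps27l had 146, 133 and 157 CPM against 202, 171 and 162 CPM, so the groups were separated by the narrow gap between floxed library 3 and Vav1-Cre library 3. The change was 0.29 on the log2 scale (SE 0.0926, edgeR adjusted p = 0.0445), and the call was lost without floxed library 1 or 2 or Vav1-Cre library 1 or 2 (adjusted p up to 0.20).

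By the deposited FPKM, the retrogene made up a larger part of the pair in the Vav1-Cre libraries. Its FPKM was 40.4%, 47.3% and 38.3% of that of Rps27 in the floxed and 59.4%, 58.4% and 59.9% in the Vav1-Cre libraries, with no overlap and little spread among the Vav1-Cre values. The means were 42.0 ± 4.73% and 59.2 ± 0.769% (SD, n = 3 each). Because coding reads of the pair cannot be told apart, this share rests on the UTRs and on the authors' counting. With the length offset in edgeR, Rps27rt stood at -1.12 and Rps27 at 0.27 on the log2 scale. With immunoglobulin genes left out of that fit, Rps27rt was called higher and Rps27 was not called. For Rps27l over Rps27 the groups overlapped, at 21.7% to 30.9% against 22.6% to 25%.

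Rpl41 and Rpl36a were the genes of the large subunit that rose. Rpl41 encodes the smallest ribosomal protein, from a coding sequence of 78 bases on chromosome 10 (chr10:128548114-128549305, minus strand). It had 2260, 1970 and 1990 CPM in the floxed and 2973, 2678 and 2424 CPM in the Vav1-Cre libraries. All Vav1-Cre libraries were above all floxed ones, and the level was 1.30-fold higher (log2 fold change 0.38, SE 0.0919, edgeR adjusted p = 0.0148). Rpl36a, an X-linked gene (chrX:134585654-134588062, plus strand) for a protein near the tRNA exit site, had 917, 766 and 828 CPM against 1107, 1052 and 1007 CPM. The groups did not overlap, with floxed library 2 lowest and Vav1-Cre library 1 highest, and the level was 1.26-fold higher (log2 fold change 0.33, SE 0.0846, edgeR adjusted p = 0.0177). Both calls were lost without floxed library 2 or 3 or Vav1-Cre library 1 or 2, with an adjusted p of up to 0.072 for Rpl41 and 0.0892 for Rpl36a. The autosomal relative Rpl36al, whose coding sequence differed from that of Rpl36a at 39 of 321 positions, was at 0.69% to 1.21% of the FPKM of Rpl36a and did not pass (0.28, adjusted p = 0.395).

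**Figure D3:**
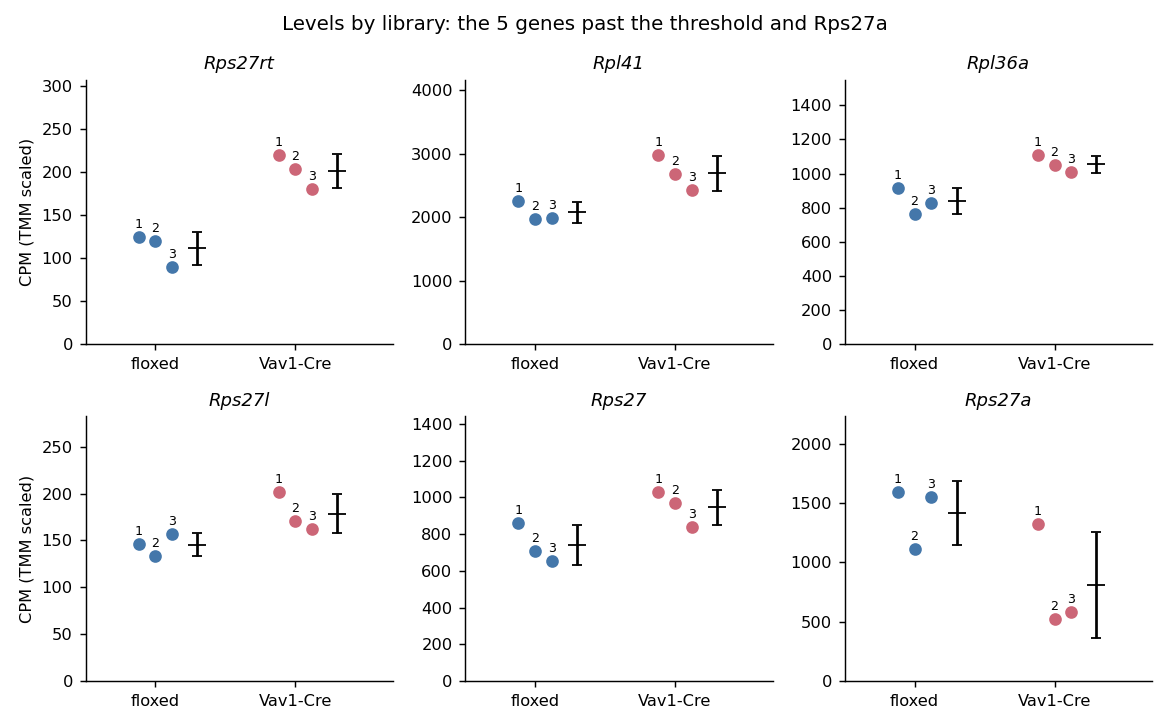
CPM (y axis, TMM scaled) of the 5 genes past the threshold and of Rps27a in each library. Dots are libraries with their number, and bars the mean ± SD of 3 libraries. Rps27rt, Rpl41, Rpl36a and Rps27l show no overlap between the groups, whereas Rps27 overlaps, and Rps27a has Vav1-Cre library 1 far above the other two.

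Of the 5 genes that rose, 4 had a very short coding sequence. Among the 11 tested members with a coding sequence of at most 300 bases (Rpl37, Rpl37a, Rpl38, Rpl39, Rpl41, Rps21, Rps27, Rps27l, Rps27rt, Rps28 and Rps29), 4 passed, all 11 fitted changes were above 0, and the median was 0.38 (0.24 to 0.85). Among the 40 members with more than 300 and up to 500 bases 1 passed and the median was 0.12. Among the 32 longer members 0 passed and the median was 0.04. Over all tested genes 10.1% rose, with 11.6% in the shortest 10% of genes by exon length, 15.4% in the next and 3.83% in the longest 10%. Across the 83 members the correlation of change with coding length was -0.57 (Spearman) or -0.48 (Pearson, log2 length). Genes are not independent replicates, and all of these values come from the same 6 libraries. With exon length in place of coding length, the correlation over the members was -0.39 (Spearman). A trend of the same direction ran through the whole table, where the correlation with exon length was -0.24 (Spearman) over 14602 genes. There the shortest 10% of genes had a median change of 0.20 and the longest 10% one of -0.13. Coding and exon length sort genes differently, as Rpl41, with 1168 exon bases, lay outside the shortest 10%, which ended at 1041 bases. Rpl38, with 542 exon bases, lay inside it.

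Short members also varied together within the groups. Rpl38, a protein of the large subunit needed for normal skeletal patterning in mice, had 541, 389 and 315 CPM in the floxed and 699, 666 and 556 CPM in the Vav1-Cre libraries. Its groups were separated by the small gap between floxed library 1 and Vav1-Cre library 3 (log2 fold change 0.62, SE 0.224, edgeR adjusted p = 0.128; -0.14 with the length offset). Rps29 and Rps28, short proteins of the small subunit, had 704, 537 and 399 against 910, 876 and 663 CPM, and 643, 500 and 366 against 790, 741 and 602 CPM. In both, floxed library 1 exceeded Vav1-Cre library 3, and neither passed (0.58, adjusted p = 0.201, and 0.50, adjusted p = 0.228). Rpl39, at the exit tunnel, had 700, 566 and 498 CPM against 844, 805 and 679 CPM (0.40, adjusted p = 0.0649). Without floxed library 1 all 4 of these genes passed, with edgeR adjusted p of 0.00286 for Rpl38, 0.0325 for Rps29, 0.0287 for Rps28 and 0.0134 for Rpl39. Of the 6 fits that left out a library, Rpl38 passed in only 1 (adjusted p up to 0.325) and Rpl39 in 2 (up to 0.225). Among the 11 shortest members, floxed library 1 was the highest of its group in 10 and floxed library 3 the lowest in 9. Vav1-Cre library 1 was the highest and library 3 the lowest in all 11. Among the other 72 tested members, floxed library 2 was the lowest in 60, and Vav1-Cre library 1 was the highest in 64 and library 3 the lowest in 48.

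Taking the trend with length out lowered the changes of the short members. With an offset per library fitted to gene length over all genes except immunoglobulin genes, the medians of the 3 length classes were 0.22, 0.03 and -0.03. Rps27rt then was the only member called higher, against a background of 9.92% of genes, and Rps3a1 (-0.26, edgeR adjusted p = 0.0152) the only one called lower, against 6.85%. With immunoglobulin genes in that fit, 1 member was called higher and 4 lower (9.87% and 9.16% of all genes), and the sign of Rps27rt turned to -1.12 (edgeR adjusted p = 0.151). What sets the relation with length was not tested.

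**Figure D4:**
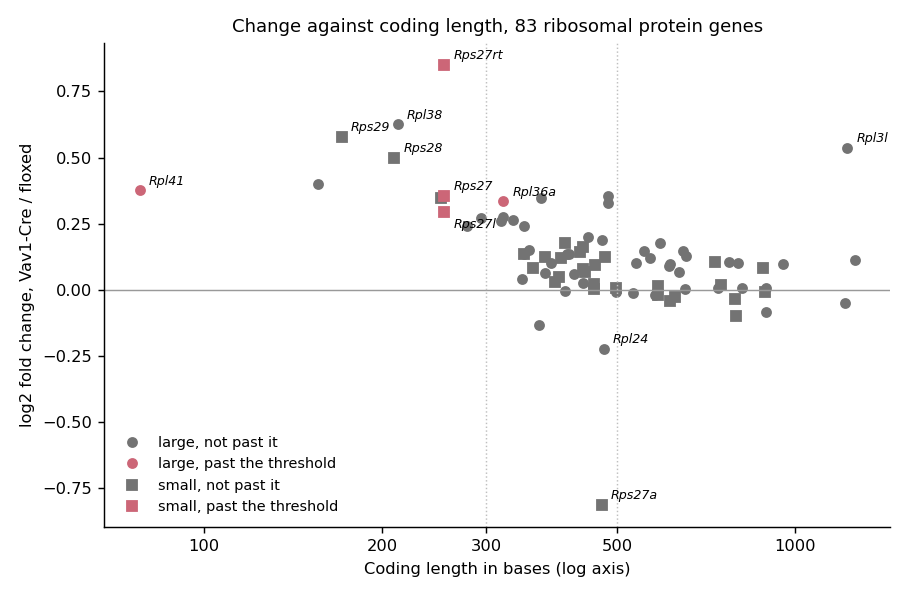
Log2 fold change of Vav1-Cre over floxed (y axis) against coding length in bases (x axis, log scale) for the 83 tested ribosomal protein genes. Circles are large and squares small subunit genes, red marks the 5 genes past the threshold, and dotted lines stand at 300 and 500 bases. All 11 genes left of the first line are above 0.

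Rps27a had the lowest fitted change of the tested members and varied the most of them within the Vav1-Cre group. It encodes a fusion of ubiquitin with a small subunit protein, and the parts are separated after translation. It had 1593, 1110 and 1551 CPM in the floxed and 1324, 518 and 581 CPM in the Vav1-Cre libraries. Vav1-Cre libraries 2 and 3 were below every floxed library, whereas library 1 lay between the floxed values. The coefficient of variation was 55.5% within the Vav1-Cre group, against a median of 8.69% over members. The log2 fold change was -0.81 with a 95% interval of -2.07 to 0.45 (edgeR adjusted p = 0.321), and -1.37 (adjusted p = 0.00899) without Vav1-Cre library 1. Clhc1, on the opposite strand, overlaps 8.11% of the exon bases of Rps27a and held 8 counts in all libraries together. Rpl30 and Rpl7a, both of the large subunit, were uneven as well. Rpl30 had 1252, 754 and 714 CPM against 1078, 1194 and 945 CPM, with floxed library 1 above all others (0.24, edgeR adjusted p = 0.589; -0.11 with quantile normalized FPKM). Its near-identical pseudogene copies were lowest in the library of each group where the gene was highest, with 799, 4181 and 6104 counts against 4184, 349 and 2797, or 3.27%, 22.9% and 31.5% against 20.1%, 1.90% and 16.5% of the counts of gene and copies together. With the counts of copies added, the change was 0.16 (edgeR adjusted p = 0.345). Rpl7a had 933, 647 and 945 CPM against 1029, 693 and 984 CPM, with library 2 low in both groups (0.10, adjusted p = 0.798).

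Fau and Rack1 are among 3 tested genes that encode ribosomal proteins under other names and are no members by symbol. Fau encodes a ubiquitin-like protein fused to a small subunit protein, and Rack1 a scaffold on the small subunit. Of the 3 genes 0 passed, beside 17.9% of all tested genes. Fau stood at 0.13 (edgeR adjusted p = 0.35) and Rack1 at -0.0021 (adjusted p = 0.989) on the log2 scale.

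The ratio of large to small subunit mRNAs differed by a small amount between the groups, and this difference was not tested. The ratio of summed counts of the large to the small subunit was 1.193, 1.1997 and 1.198 in the floxed and 1.226, 1.257 and 1.251 in the Vav1-Cre libraries. All Vav1-Cre values were above all floxed ones, and library 1 was the nearest to them. The means were 1.197 ± 0.00362 and 1.245 ± 0.0164 (SD, n = 3 each), a difference of 0.0482. Part of it came from Rps27a, without which the ratios were 1.221, 1.222 and 1.226 against 1.248, 1.267 and 1.262 and the difference was 0.0366. The groups also stayed apart in summed FPKM (1.311, 1.318 and 1.317 against 1.356, 1.366 and 1.373) and with the counts of pseudogene copies added (1.231, 1.240 and 1.244 against 1.266, 1.299 and 1.289).

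**Figure D5:**
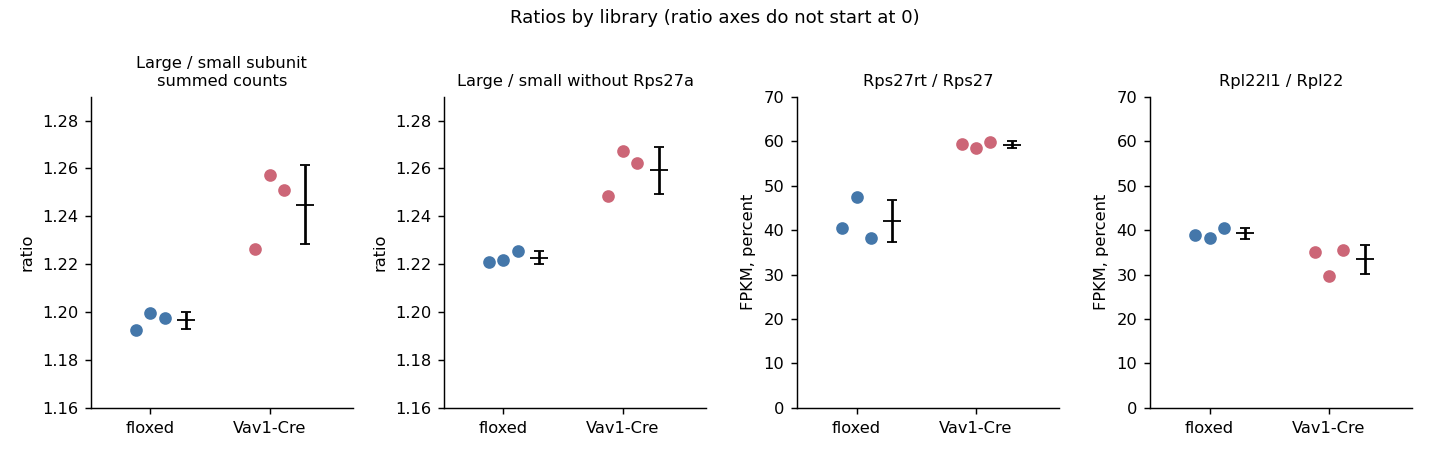
From left to right, the ratio of summed counts of large to small subunit genes, the same without Rps27a (y axes do not start at 0), and the FPKM of Rps27rt as a percent of Rps27 and of Rpl22l1 as a percent of Rpl22, in each library. Dots are libraries and bars the mean ± SD of 3. The first 3 measures are higher and the last is lower in all Vav1-Cre libraries.

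Among pairs of a ribosomal protein and its paralog, the proportion of Rpl22l1 to Rpl22 was also separated between the groups. This ratio was not tested, and 37.2% of all tested single genes were separated in CPM. Rpl22 binds RNA on the large subunit, is needed for alpha-beta T cell development in mice and is known there to repress Rpl22l1. The FPKM of Rpl22l1 was 38.8%, 38.3% and 40.6% of that of Rpl22 in the floxed and 35.1%, 29.7% and 35.4% in the Vav1-Cre libraries, all lower, with library 2 the lowest. The single genes did not pass in the test used here. Rpl22l1 had 225, 204 and 240 CPM against 225, 183 and 201 CPM (-0.13, edgeR adjusted p = 0.333), and Rpl22 had 849, 780 and 865 CPM against 940, 904 and 831 CPM (0.10, adjusted p = 0.417), and in both the groups overlapped. Other settings called Rpl22l1 lower, with -0.25 (adjusted p = 0.0479) under the length offset and -0.26 (adjusted p = 0.0293) under the length and GC offset in edgeR, and -0.47 (adjusted p = 0.0217) under quantile normalization in limma. Without immunoglobulin genes the call was lost under the length offset (-0.23, edgeR adjusted p = 0.0695). There the length and GC offset gave -0.26 (edgeR adjusted p = 0.0293) and quantile normalization -0.34 (limma adjusted p = 0.0372). With immunoglobulin genes, quantile normalization called 41 members lower, and Rpl22 was 1 of them (-0.36, limma adjusted p = 0.0141). Rpl7l1, a paralog of Rpl7 that acts in ribosome assembly, was at 3.78% to 4.47% of Rpl7, and Rpl3l at 0.0919% to 0.267% of Rpl3, with overlapping groups in each.

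Functional groups within the ribosome moved by little. At the 17.9% of all tested genes that passed, groups of 2 or 3 genes may hold no call. Of the stalk proteins Rplp0, Rplp1 and Rplp2, which bind the elongation factors, 0 of 3 passed. Rplp0, the most abundant member in CPM, had 5274, 4979 and 5221 CPM in the floxed and 5786, 5548 and 5211 CPM in the Vav1-Cre libraries (0.10, 95% interval -0.07 to 0.26, edgeR adjusted p = 0.409). Rpl5 and Rpl11 form a particle with the 5S RNA that restrains the p53 regulator Mdm2, and 0 of 2 passed. Rpl5 had 2140, 1965 and 2243 CPM against 2220, 2098 and 2057 CPM (0.006, 95% interval -0.16 to 0.18), and Rpl11 stood at 0.10 (-0.09 to 0.29). Of 20 tested members mutated in Diamond-Blackfan anaemia or lost in the 5q- syndrome, both human disorders of red cell formation, 1 passed, Rps27, against 10.1% of all genes, and the median was 0.11. Rps19, the first gene found in the anaemia, had 2571, 2268 and 2526 CPM against 2916, 2446 and 2411 CPM (0.08, 95% interval -0.12 to 0.28; -0.20 with quantile normalized FPKM). Rps14, a gene of the region lost in the 5q- syndrome, had 2867, 2574 and 2890 CPM against 3102, 2630 and 2622 CPM (0.0039, 95% interval -0.19 to 0.20). Under quantile normalization of the deposited FPKM, Rplp0, Rplp1, Rplp2, Rpl5, Rpl11 and Rps14 were called lower, along with 35 other members.

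Motifs of the pyrimidine tract were found near the annotated start of many members, in windows that also hold bases before the start. RefSeq start windows (GRCm38.p6) were at hand for 65 of the 85 members. From 25 bases before to 50 bases after the start, CTTTCC or CTCTTT on the sense strand was found in 29 of 65 (44.6%), against 5.75% of 27025 genes. Each motif alone was in 18 members (27.7%), against 3.46% and 2.72% of genes, and the 2 can overlap in CTCTTTCC. CCGGAAG on either strand, the core of sites for ETS factors such as GABP, was in 25 of 65 windows of 250 bases before to 50 after the start (38.5% against 9.12%). AAGATGG on either strand, the core of YY1 sites, was in 9 (13.8% against 6.48%), and TATAAA in the 50 bases before the start in 1, Rpl22l1 (1.54% against 2.88%). These are matches of letters and not measured sites. The longest run of C and T from 6 bases before the start, over 20 bases, had a median of 5 letters in the 65 members and 4 in all genes, and it reached 8 letters in 20 members (30.8%, against 6.43% of genes). The following windows, 6 bases before to 24 after the start with that run in capitals, were picked after their values were seen, to show long and short tracts. They do not stand for the members that passed or did not pass, since the run had 9 letters in Rps27, which rose, and 1 in Rps3a1, 2 in Rpl11 and 3 in Rpl10, which did not pass.
Rps6 (chr4:86857344-86857373, minus strand): tcgggCCTCTTTTTCgtgacgcctcccagg
Rpl35 (chr2:39005108-39005137, minus strand): CCTTTCCTCTTTCTCTCgaaccaggctgct
Rpl28 (chr7:4792959-4792988, plus strand): gtgTCTCTCTTTCCgtctccggccgccata
Rps10 (chr17:27635221-27635250, minus strand): acgCCCCTTCCTTTCCagcctccgcctcgg
Rpl36a (chrX:134585648-134585677, plus strand): ggcaccgcctataaaCTTCCgttgcggctc
Rps27l (chr9:66946080-66946109, plus strand): cccgccgCCTCTatcccggaagttgctgag
Rpl41 (chr10:128549145-128549174, minus strand): cggCTCggaagtgacgacaccgagcacgcc
The run had 17 letters in Rpl35, 13 in Rps10, 11 in Rpl28, 10 in Rps6, 5 in Rpl36a and Rps27l and 3 in Rpl41. The windows depend on the annotated start, and a run outside them is not seen.

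Genes of the machinery that works with these proteins were described by counts of tested members past the threshold. Over all genes 10.1% rose and 7.89% fell. Of 6 elongation factors 2 rose, Eef1d, a subunit of the exchange factor of Eef1a1 (0.26, edgeR adjusted p = 0.0226), and Eif5a, which relieves stalls (0.27, adjusted p = 0.0267). Of 29 initiation factors and poly(A) binding proteins 4 rose and 0 fell, with a median of 0.09. Eif2s1, which encodes the alpha subunit of eIF2, rose 1.23-fold, from 126, 127 and 136 CPM to 154, 168 and 157 CPM (edgeR adjusted p = 0.013). The others were Eif3g, Eif2s2 and Eif1ax (0.23 to 0.25). Each of these 6 lost the threshold in at least 3 of the 6 fits that left out a library (adjusted p up to 0.181). Of 19 other mRNAs known to carry a TOP tract 1 rose, again Eef1d, and the median was 0.04.

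Of 20 genes that control TOP mRNAs and ribosomal protein output, 3 fell and 1 rose (7.89% and 10.1% of all genes), and the median was -0.15. Myc, a transcription factor that drives ribosome production, had 157, 157 and 144 CPM in the floxed and 82.7, 83.3 and 108 CPM in the Vav1-Cre libraries, which were all lower. It fell 1.67-fold (log2 fold change -0.74, SE 0.102, edgeR adjusted p = 0.000855), and the call held whichever library was left out. Akt1s1, which encodes the mTORC1 inhibitor PRAS40, fell 1.26-fold from 81.1, 81.4 and 81.3 to 61.8, 64.8 and 66.8 CPM (adjusted p = 0.00713, edgeR), also whichever library was left out. Rps6ka3, a kinase of the MAPK pathway that phosphorylates Rps6, fell 1.30-fold (edgeR adjusted p = 0.0111, lost without Vav1-Cre library 2 at 0.0563). Larp1b, a relative of Larp1, rose 1.48-fold from a low level (11.6 ± 1.46 to 17.1 ± 1.89 CPM, SD, n = 3 each, edgeR adjusted p = 0.0177, up to 0.0812 without a library). Larp1 itself stood at -0.12 (adjusted p = 0.344) and Mtor at 0.07 (adjusted p = 0.658).

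Other lists of genes around the ribosome were counted beside the 17.9% of all tested genes that passed. Lists this short may hold few or no calls at that share. Of 23 tested chaperones of ribosomal proteins and late assembly factors 0 passed, with a median of 0.01. Of 6 tested snoRNA host genes 0 passed, and of 10 genes of ribosome quality control 0 passed, with a median of -0.12. Of 5 factors that bind promoters of ribosomal protein genes 1 fell, Sp1 (-0.32, edgeR adjusted p = 0.0263, up to 0.115 without a library). A p that missed the threshold does not show that these levels were equal.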

How the data were processed

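RNA of 6 libraries was sequenced from TruSeq RNA kits, per the labels' protocols (use of strand: not given in the sources used here). Deposited by the authors were a whole-number count and an FPKM value per Ensembl gene and library, per the file headers. Bowtie and mm8 stand in the submitters' processing notes, but 54495 of 54532 identifiers matched GENCODE M21, and the implied lengths equalled its exon lengths for 94.4% to 94.6% of well covered genes, so coordinates are GRCm38. The deposited FPKM are scaled between libraries. Replicates were numbered in the order of deposit and were not paired; no pair agreed within sampling noise (chi-square per gene at least 12.05). Unmatched identifiers held at most 0.00718% of counts.

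Counts were tested with edgeR 4.0.16 in R 4.3.3 (quasi-likelihood, TMM, filterByExpr with a minimum count of 10, robust) and adjusted by Benjamini-Hochberg over all genes, at a threshold of 0.05. Alternatives were DESeq2 1.42.0, limma 3.58.1 (voom, or log2 of FPKM plus 1 or 0.1, genes with a mean FPKM of at least 0.5), other scalings and filters, offsets for length and GC (spline with 6 df; GC of the longest transcript), and each library left out. Copies were found with BLAST 2.17.0. The scripts were tested on simulated data. Members and lists were chosen with earlier results of these data known. Named were members past the threshold, paralogs, the stalk, 5S and anaemia lists, the 3 highest and 3 lowest detected by FPKM, Phf6 and up to 4 genes per other list; further genes, such as Rpl38 or Rps27a, were chosen after their values were seen.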

Additional observations from a re-analysis of the deposited data

How the results depend on the processing

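The number of members called higher, 5 in the report, was 3 with upper-quartile scaling, a mean count of at least 50 or the robust option off, 14 without a count filter, 12 with DESeq2, and 1 to 13 when a library was left out. It was 1 with limma on FPKM under either pseudocount and without a filter, 0 with quantile normalization, 1 with the length offset and 2 with length and GC. Fitted without immunoglobulin genes, settings chosen after the data were seen, these gave 1 (length), 2 (length and GC) and 1 (quantile). The number called lower, 0, was 0 to 1 without a library, 41 with quantile normalization, 4 with the length offset and 5 with length and GC, and without immunoglobulin genes 1 (length), 2 (length and GC) and 2 (quantile). Of all calls 56% were higher with TMM, against 45.9% with upper-quartile scaling and 36.7% with quantile normalization. Without Vav1-Cre library 1 the gene called lower was Rps27a.

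Quantile normalization reversed the sign of Rps27 (-0.0583), Rps27l (-0.0943), Eif5a (-0.060), Eif3g (-0.0875), Fau (-0.33), Rpl22 (-0.36), Rplp0 (-0.51), Rplp1 (-0.86), Rplp2 (-0.27), Rpl5 (-0.29), Rpl7 (-0.36), Rpl11 (-0.25), Rps14 (-0.41), Rps15 (-0.52) and Rpl36 (-0.30). The length offset did so for Rps27rt (-1.12), Rps12-ps3 (-0.87), Rplp1 (-0.96), Rps15 (-0.21) and Rpl36 (-1.60), and the length and GC offset for Rps27rt (-1.19), Rps12-ps3 (-0.86), Rplp1 (-0.88) and Rpl36 (-1.49). Among genes called under neither setting, Rpl38 turned to -0.14 with the length offset and -0.039 with length and GC, Rps19 to -0.20 and Rpl30 to -0.11 with quantile normalization, and Rps19 to -0.014 without Vav1-Cre library 1; uncalled genes with a fitted change near 0 may turn elsewhere. The difference in the share of counts, -0.91 points, was -0.0211 without immunoglobulin genes in the total, -3.97 with sums of FPKM and -0.25 with sums of FPKM without immunoglobulin genes. The difference in the large to small ratio kept its direction in all 10 alternatives. Rps27rt kept its call in 21 of 24 alternatives, Rpl41 in 14, Rpl36a in 11, Rps27 in 8 and Rps27l in 7, while Myc and Akt1s1 kept theirs in all 24. The causes were not tested. No paired analysis was possible because the labels give the libraries no replicate numbers shared between the groups.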

Other observations

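Some genes left out by name have near-identical or similar coding sequences. Rps12-ps3, a protein-coding gene by annotation, was 100% identical to Rps12 over the aligned part of the coding sequence. It had 646, 557 and 698 CPM in the floxed and 729, 653 and 715 CPM in the Vav1-Cre libraries, and the groups overlapped (0.14, edgeR adjusted p = 0.317). With the length offset it was called lower (-0.87, edgeR adjusted p = 0.00106), likewise with length and GC (-0.86, edgeR adjusted p = 0.00129). Rpl9-ps6, 99.8% identical to Rpl9 over the aligned part, had 257, 216 and 236 CPM against 287, 280 and 267 CPM, all higher, and did not pass (0.23, edgeR adjusted p = 0.061). Rps4l, a paralog of Rps4x annotated as a transcribed pseudogene, was at 31.4, 32.5 and 30.3 CPM against 31.8, 30.3 and 33.0 CPM. Pseudogenes with Rpl or Rps names held 0.684% to 0.781% of the counts in the floxed and 0.642% to 0.71% in the Vav1-Cre libraries.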
